A study of Mus musculus with 24 samples.

Results

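The genes described here make fatty acids and join them to glycerol as triglyceride, and they comprise 32 mouse genes chosen by symbol for their place in that pathway. They were measured in mammary glands after progesterone or vehicle. Each gene was read from the probe set with the highest mean log2 intensity among those that the array's annotation gives a single gene symbol. In this way 31 of the 32 were read, all 31 passed the filter on dim probe sets, and they stand among 12352 genes tested. Acsl1, an acyl-CoA synthetase, has no probe set with a single symbol and was not analysed here.

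All mice were nulliparous Balb/c females whose ovaries had been removed at 6 weeks of age, followed by 2 weeks of rest, so that the controls too lacked ovarian hormone. The treated mice received 1 mg of progesterone in 100 µl of sesame oil by daily injection under the skin, and the control mice received the oil alone. Glands were taken 4, 16, 28 or 76 h after the first injection, which makes 8 groups of 3 arrays. Each array carried RNA pooled from 5 mice, 15 mice per group, so that the spread between arrays is a spread between pools. With daily dosing the 28 and 76 h groups had been injected more often than the 4 and 16 h groups. For them time and number of injections cannot be told apart. The times 4, 28 and 76 h lie whole days apart. If all mice were injected at the same hour, these groups share an hour of day that the 16 h groups do not.

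Fatty acid synthesis starts from citrate that leaves the mitochondrion and is split into acetyl-CoA in the cytosol. Acetyl-CoA carboxylase turns acetyl-CoA into malonyl-CoA, fatty acid synthase builds palmitate from both with NADPH as reductant, and elongases and desaturases then lengthen the chain and add double bonds. After activation to acyl-CoA, the chains are attached in turn to a glycerol backbone, with a phosphatase step before the last acyl transfer. The genes of this pathway are switched on together by the sterol response element binding protein SREBP-1 and by the glucose-sensing factor ChREBP. In the mammary gland the pathway runs in the adipocytes of the fat pad and, during lactation, in the secretory epithelium that makes milk fat.

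Array medians lay between 62.8 and 70.2 intensity units, and pairs of arrays within a group correlated across genes with r from 0.966 to 0.993. Adipocyte markers such as Adipoq and epithelial keratins such as Krt8 were well above the array medians in every group. Some arrays stood apart for the lipid genes themselves. Among the 3 progesterone arrays at 28 h, replicate 2 was the lowest for 25 of the 31 genes and replicate 3 the highest for 24. In the oil group at 28 h replicate 1 was the highest for 25 genes, and in that at 76 h replicate 2 was the lowest for 25. A gene is named as called where limma's adjusted p, over all 12352 genes, was under 0.05. Differences are log2 progesterone minus oil, with SE from the model.

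At 76 h most of the lipid synthesis genes were lower with progesterone. Of the 31 tested, 20 fell, none rose and 11 were not called, while of all genes 17.8% were called, 6.70% lower and 11.1% higher. The median log2 difference was -0.52 for the 31 genes and 0.02 for all genes tested. In each of the 20 genes that fell, all 3 progesterone arrays lay below all 3 oil arrays, and 2 further genes, Mcat and Mogat2, were separated in the same direction without being called. Over all genes, 18.9% were separated in this way toward lower values and 25.8% toward higher values, the latter with 2 of the 31 genes, Scd1 and Lpin2. The log2 differences of the 20 ran from -0.31 for Thrsp to -1.47 for Pnpla3. By step, all 4 genes that supply acetyl-CoA and NADPH fell, as did 3 of 4 that build the chain, 1 of 3 elongases, 1 of 4 desaturases, 0 of 2 acyl-CoA synthetases, 5 of 8 that assemble or remodel glycerolipid and 6 of 6 regulators.

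Cell type markers moved on the same arrays. All 11 luminal epithelial markers tested rose at 76 h, and their summed intensity was 5167 to 6426 on the oil arrays and 16498 to 18799 on the progesterone arrays. Basal markers rose for 8 of 9 genes. Of 12 white adipocyte markers 4 fell, and their summed intensity went from 72484 to 73189 in oil to 61677 to 69612 with progesterone. Among these, the glucose transporter Slc2a4 changed by -0.88, the hormone resistin, Retn, by -0.28, the fatty acid transporter Cd36 by -0.24 and lipoprotein lipase, Lpl, by -0.17. The adipokine gene Adipoq stood at -0.07 (adjusted p = 0.429) and the fatty acid binding protein gene Fabp4 at 0.02 (adjusted p = 0.824), although Fabp4, at a mean of 14978 ± 185 in oil, was close to the highest intensity of any probe set, 13993 to 15710 per array. Brown adipocyte markers fell for 3 of 7 genes, with summed intensities of 3567 to 4458 in oil and 1618 to 2017 with progesterone, and lymphocyte markers fell for 5 of 9. Skeletal muscle markers summed to 11650 to 42995 in oil and 15559 to 28532 with progesterone. In whole glands fewer cells of a type and less RNA per cell cannot be told apart, and the part of the changed cell markers in the fall of the lipid genes was not tested.

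**Figure D1:**
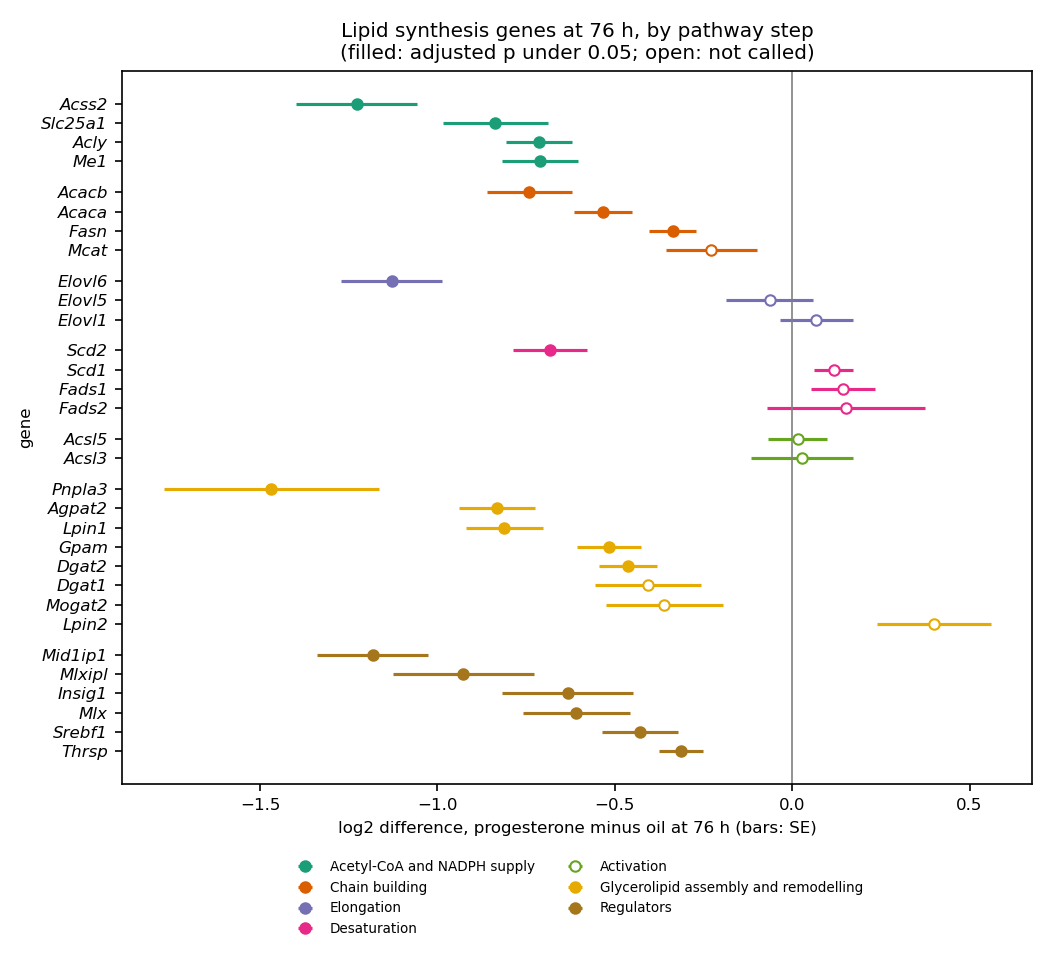
The log2 difference between progesterone and oil at 76 h (horizontal axis) is drawn for each of the 31 genes, grouped and coloured by pathway step; points are model estimates, bars are SE, and filled points have an adjusted p under 0.05. All filled points lie left of 0, and the genes of acetyl-CoA and NADPH supply and the regulators are all filled, whereas both acyl-CoA synthetases lie close to 0.

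The 250 bases upstream of the transcription start were taken from RefSeq on build GRCm38.p6 for the 25 of 32 genes with an entry, 18 of them among the 20 that fell. They are shown because these genes fell together and because the promoters of SREBP-1 target genes are known for CCAAT boxes, the binding site of NF-Y. A gene was counted where any of its listed starts held the letters on either strand. CCAAT was found in 12 of the 18 (66.7%), in 5 of the 6 uncalled genes with an entry (83.3%), in 39.9% of the 9952 tested genes with an entry and in 37.5% of all 27025 genes listed. The E-box CACGTG was found in 4 of the 18 (22.2%), in 2 of the 6 uncalled genes (33.3%), in 9.85% of the tested genes and in 6.86% of all. The wider E-box CANNTG, which includes CACGTG, was in 66.7% of the 18, 83.3% of the 6 and 62.5% of the tested genes, and GGGCGG, the letters bound by Sp1, in 61.1%, 66.7% and 62.7%. The sterol response element form TCACNCCAC was found for 1 of the 18, Mlxipl, and in 1.21% of the tested genes. A direct repeat of AGGTCA with a spacer of 4 bases, the element of the liver X receptor, and the inverted repeat of AGAACA with a spacer of 3 bases, the consensus of steroid receptors, were in none of the 18, and in 0 and 1 of the tested genes. Neither CCAAT nor the E-box forms nor the Sp1 letters were more frequent among the genes that fell than among the 6 that were not called. With only 6 genes in that set, the comparison cannot decide whether the shares differ. Of the 8 genes that fell with a single listed start and a CCAAT, the 5 with more than 1 match to CCAAT or CACGTG are printed, 5′ to 3′ on the gene's strand and ending at the base before the start. Capitals mark CCAAT, its reverse complement ATTGG and CACGTG.
Fasn (chr11:120824548-120824797, minus strand): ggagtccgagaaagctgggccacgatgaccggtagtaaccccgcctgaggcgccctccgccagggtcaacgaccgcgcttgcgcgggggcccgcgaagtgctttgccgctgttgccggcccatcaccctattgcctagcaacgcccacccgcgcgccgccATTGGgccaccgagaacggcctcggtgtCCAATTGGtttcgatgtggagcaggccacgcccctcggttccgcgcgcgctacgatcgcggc
Thrsp (chr7:97417551-97417800, minus strand): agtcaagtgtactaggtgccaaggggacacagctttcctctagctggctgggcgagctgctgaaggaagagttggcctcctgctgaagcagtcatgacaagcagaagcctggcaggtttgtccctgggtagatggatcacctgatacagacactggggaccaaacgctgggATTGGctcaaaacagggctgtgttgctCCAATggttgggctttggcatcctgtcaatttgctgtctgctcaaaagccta
Mlx (chr11:101087040-101087289, plus strand): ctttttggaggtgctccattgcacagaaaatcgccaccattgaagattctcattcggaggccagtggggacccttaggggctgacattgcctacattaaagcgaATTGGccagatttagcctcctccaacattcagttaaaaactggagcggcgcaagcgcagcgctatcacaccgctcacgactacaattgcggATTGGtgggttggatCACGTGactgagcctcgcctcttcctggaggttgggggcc
Slc25a1 (chr16:17928220-17928469, minus strand): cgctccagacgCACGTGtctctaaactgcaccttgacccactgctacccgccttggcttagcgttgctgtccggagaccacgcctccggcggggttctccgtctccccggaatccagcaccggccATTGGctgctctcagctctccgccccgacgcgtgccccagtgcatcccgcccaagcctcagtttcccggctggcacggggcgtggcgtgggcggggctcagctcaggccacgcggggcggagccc
Insig1 (chr5:28071162-28071411, plus strand): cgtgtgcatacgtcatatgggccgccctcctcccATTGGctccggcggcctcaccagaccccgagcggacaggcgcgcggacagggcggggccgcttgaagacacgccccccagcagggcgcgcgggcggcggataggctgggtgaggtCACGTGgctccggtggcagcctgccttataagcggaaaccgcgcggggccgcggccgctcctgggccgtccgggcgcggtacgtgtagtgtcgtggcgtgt
Fasn held 3 CCAAT matches, which begin 90, 62 and 59 bases before the start, and the last pair overlap as CCAATTGG. In Thrsp the pair of matches begin 79 and 52 bases before the start. Mlx carried CCAAT matches at 146 and 55 bases and CACGTG at 40 bases before the start. In Slc25a1 and Insig1 both motifs occurred once each. A match is a description of the letters and not a test of binding.

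The listed genes that supply carbon and reducing power, Acly, Acss2, Slc25a1 and Me1, all fell at 76 h. Acly, ATP citrate lyase, which splits cytosolic citrate, read 10169, 9683 and 10319 on the oil arrays and 5804, 6692 and 5941 with progesterone. The groups did not overlap, and the difference was -0.71 ± 0.09 (adjusted p = 5.55e-06). Acss2, which makes acetyl-CoA from acetate, read 3015, 2282 and 2751 in oil and 1144, 1283 and 1005 with progesterone. Even its lowest oil array was well above the highest progesterone array, and the gene fell by 57.3%, -1.23 ± 0.17 on the log2 scale (adjusted p = 1.33e-05). Slc25a1, the carrier that exports citrate from the mitochondrion, read 3858, 3314 and 4781 in oil and 1857, 2103 and 2747 with progesterone. Its arrays were separated but spread widely in both groups, with progesterone replicate 3 nearest to oil, and the difference was -0.84 ± 0.15 (adjusted p = 2.26e-04). Me1, malic enzyme, a source of NADPH, read 10053, 8951 and 10034 in oil and 5314, 6248 and 6198 with progesterone. The groups were well separated, and the gene fell by 38.9% (adjusted p = 4.08e-05).

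In chain building, both acetyl-CoA carboxylases and fatty acid synthase fell. Acaca, the cytosolic carboxylase that feeds synthesis, read 6596, 6187 and 6309 in oil and 4132, 4494 and 4562 with progesterone. The 3 arrays of each group lay close together, and the difference was -0.53 ± 0.08 (adjusted p = 4.37e-05). Acacb, the form at the mitochondrial surface whose malonyl-CoA restrains fatty acid oxidation, read 1555, 1267 and 1387 in oil and 724, 846 and 956 with progesterone. It differed by -0.74 ± 0.12 (adjusted p = 9.30e-05). Fasn, whose promoter is printed above, read 11751, 11536 and 11547 in oil and 8345, 9086 and 10238 with progesterone. The oil arrays were tight and the progesterone arrays spread, and the difference was the smallest of the 3, -0.34 ± 0.07 (adjusted p = 8.26e-04). Mcat, of the separate mitochondrial fatty acid synthesis, read 169 to 189 in oil and 153 to 156 with progesterone and was not called (-0.23 ± 0.13, adjusted p = 0.249).

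Elongases and desaturases did not move as a block. Elovl6, which lengthens palmitate to stearate, read 6191, 5287 and 5556 in oil and 2517, 2911 and 2372 with progesterone. It had the smallest adjusted p of the 31 genes, 3.92e-06, with a difference of -1.13 ± 0.14. Elovl1, which makes very long saturated chains, and Elovl5, which acts on polyunsaturated chains, stood at 0.07 (95% interval -0.14 to 0.28) and -0.06 (-0.32 to 0.19). Scd1 and Scd2 are stearoyl-CoA desaturases, which put the double bond into stearate and palmitate. Scd2 read 7124, 5977 and 6364 in oil and 3666, 4088 and 4372 with progesterone. Its groups did not overlap, with a difference of -0.68 ± 0.10 (adjusted p = 4.64e-05). Scd1 read 12343, 12432 and 12302 in oil and 13558, 13660 and 12998 with progesterone. All 3 progesterone arrays were above the oil arrays, by 0.12 ± 0.06, but the gene was not called (adjusted p = 0.161), and its intensity lay near the top of the scale. Fads1 and Fads2, the desaturases of polyunsaturated chains, stood at 0.14 (-0.04 to 0.33) and 0.15 (-0.31 to 0.61) and were not called.

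The acyl-CoA synthetases, which activate free fatty acids, showed the smallest differences. Acsl3, found on the endoplasmic reticulum and lipid droplets, had group means of 248 ± 5.03 in oil and 253 ± 20.3 with progesterone (SD, n = 3 arrays each), a difference of 0.03 (-0.27 to 0.33). Acsl5 had means of 1327 ± 53.9 and 1342 ± 70.0, a difference of 0.02 (-0.15 to 0.19). For Acsl5 the interval leaves out a fall as large as that of Fasn.

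Glycerolipid assembly fell at most of its steps. Gpam, the mitochondrial acyltransferase of the entry step, had means of 3710.2 ± 143 in oil and 2594 ± 132 with progesterone, a difference of -0.52 ± 0.09 (adjusted p = 2.33e-04). Agpat2, which adds the next chain to form phosphatidic acid, read 7708, 7000.5 and 7996 in oil and 3694, 4219 and 4913 with progesterone. The lowest oil array was above the highest progesterone array, and the gene fell by 43.8% (adjusted p = 5.09e-06). The lipins Lpin1 and Lpin2 are phosphatidic acid phosphatases. Lpin1 read 2575, 2510.5 and 2646 in oil and 1394, 1645 and 1380.2 with progesterone. This gave -0.81 ± 0.11 (adjusted p = 8.22e-06), whereas Lpin2 read 379, 410.3 and 343 in oil and 537, 508 and 447 with progesterone. The Lpin2 arrays were separated upward, at 0.40 ± 0.16, without being called (adjusted p = 0.0910).

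Dgat1 and Dgat2 catalyse the last acyl transfer that yields triglyceride. Dgat2 read 8383, 8082 and 8519.5 in oil and 5417, 6061 and 6704 with progesterone. It fell by 27.5% (adjusted p = 2.34e-04), with progesterone replicate 3 nearest to oil. Dgat1 read 1386, 1326 and 1545 in oil and 875, 987 and 1415 with progesterone. Progesterone replicate 3 lay within the oil range, and the difference of -0.41 ± 0.15 was not called (adjusted p = 0.0638). Mogat2, a monoacylglycerol acyltransferase, was dim, at 102 to 118 in oil and 80.1 to 88.5 with progesterone, and was not called (-0.36 ± 0.17). Pnpla3, a lipid droplet protein that remodels triglyceride, read 1023, 829.5 and 1328 in oil and 321, 285 and 581 with progesterone. It had the largest difference of the 31 genes and also the largest error, -1.47 ± 0.30 (adjusted p = 0.00122), and all 3 progesterone arrays lay within the range of the oil group at 28 h, 643, 275 and 593.

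All 6 regulators fell at 76 h. Srebf1, which encodes SREBP-1, read 2719, 2297 and 2799 in oil and 1825, 1874 and 2093 with progesterone. The groups did not overlap, with a difference of -0.43 ± 0.11 (adjusted p = 0.00609). Mlxipl, which encodes ChREBP, read 1015, 803 and 1002 in oil and 409, 431 and 673 with progesterone. Replicates 1 and 2 were far below oil and replicate 3 less so, with a difference of -0.93 ± 0.20 (adjusted p = 0.00180). Mlx, the partner with which ChREBP binds DNA, had means of 452 ± 68.1 in oil and 296 ± 38.1 with progesterone, a difference of -0.61 ± 0.15 (adjusted p = 0.00597). Mid1ip1, which promotes the assembly of acetyl-CoA carboxylase into filaments, read 2237, 1854 and 2401 in oil and 869, 905 and 1083 with progesterone. It fell by 55.9% (adjusted p = 7.44e-06). Its relative Thrsp, also called Spot 14, had means of 12321 ± 309 and 9925 ± 706, a difference of -0.31 ± 0.06 (adjusted p = 8.28e-04) from a probe set near the top of the intensity scale. Insig1, which retains SREBP in the endoplasmic reticulum and is itself an SREBP target, read 2844, 2564 and 1983 in oil and 1634, 1540 and 1542 with progesterone. Its difference was -0.63 ± 0.18 (adjusted p = 0.0182), but measured from the oil groups at 4, 16 and 28 h it was -0.06 ± 0.15 (adjusted p = 0.816), and the call was also lost without oil replicate 1, oil replicate 2 or progesterone replicate 2. Of the 20 falls, that of Insig1 was the only one whose call was lost in any of the 17 other settings and array omissions tried.

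**Figure D2:**
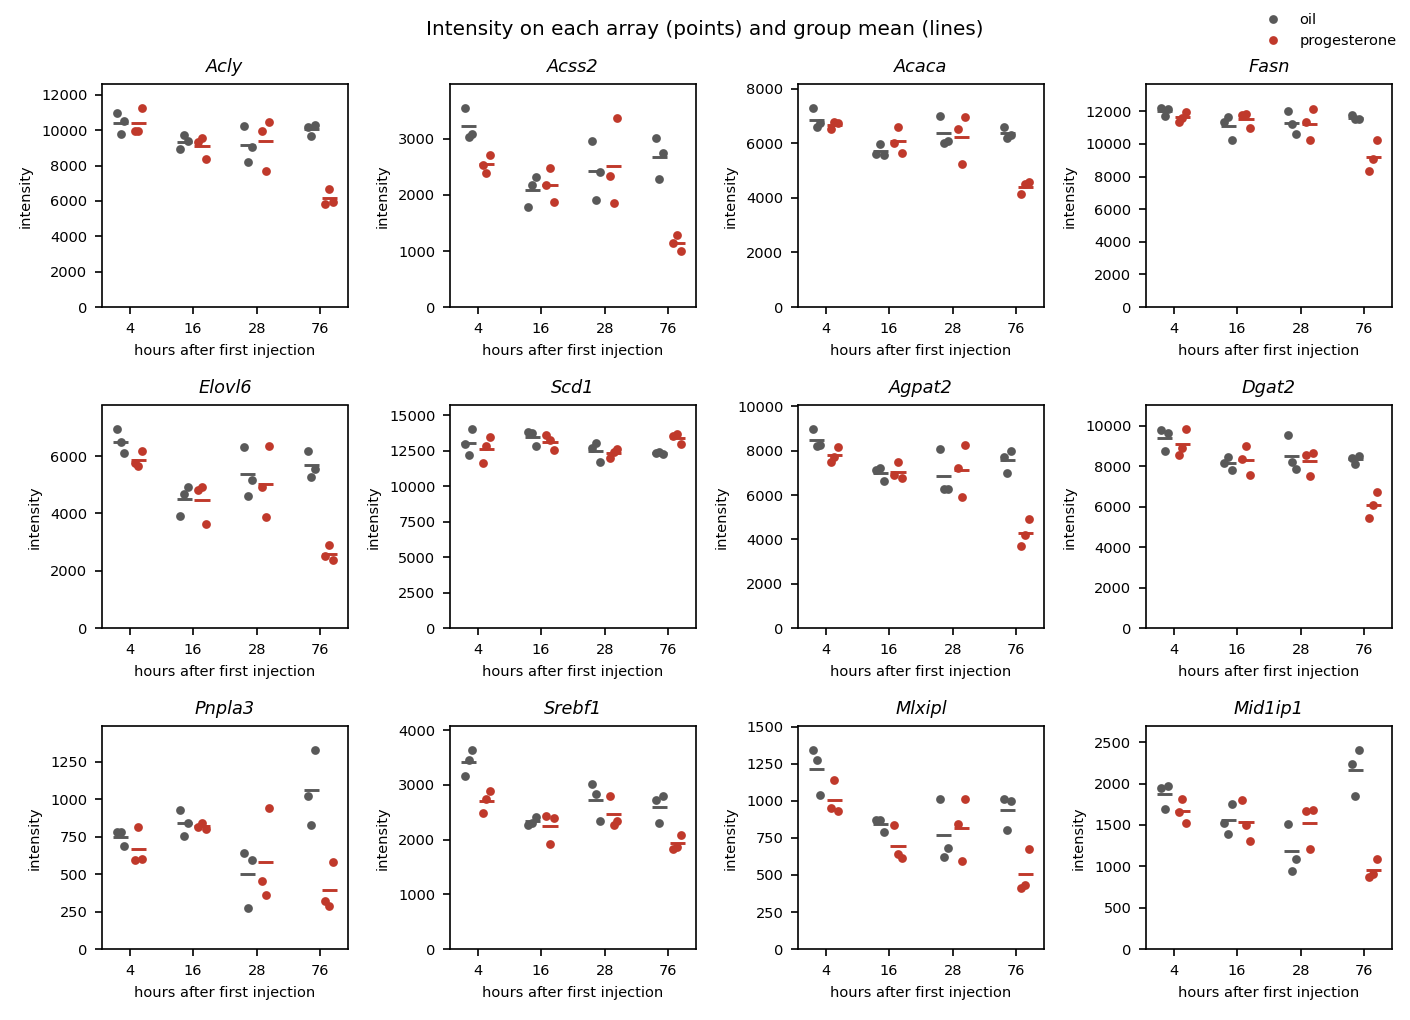
Intensity on each array (points, vertical axes from 0) and the group mean (lines) are plotted against hours after the first injection for 12 of the genes, oil in grey and progesterone in red. The progesterone arrays separate downward at 76 h for each gene drawn except Scd1, which lies above oil there, while at 16 and 28 h the 2 treatments overlap for most of them.

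Other genes of the same metabolism, from a separate list, were lower as well at 76 h, though fewer of them. Of 62 tested, 20 fell and 1 rose, and their median difference was -0.19. In carbon and NADPH supply 5 of 6 fell, among them Pgd, an NADPH-producing enzyme of the pentose phosphate pathway (-0.82), pyruvate carboxylase, Pcx (-0.68), the glycerol-3-phosphate dehydrogenase Gpd1 (-0.47) and citrate synthase, Cs (-0.36). Of 14 further genes of the acyl chain 3 fell, namely Aacs (-0.51), which makes acetoacetyl-CoA in the cytosol, and the elongation cycle genes Hacd2 (-0.47) and Hsd17b12 (-0.42). Activation gave 1 of 6, the acyl-CoA binding protein Dbi (-0.31). Among 10 genes of glycerolipid assembly 2 fell, the monoacylglycerol acyltransferase Mogat1 (means 267 ± 15.3 in oil and 134 ± 13.7 with progesterone) and Gpat3 (-0.35). In storage and lipolysis 7 of 12 fell, including the lipid droplet proteins Cidea (-1.32) and Plin2 (-0.43), the lipase inhibitor G0s2 (-0.87) and Fitm2 (-0.52), which helps droplets to form. Of 14 genes that control the pathway 2 fell, the catalytic AMP-activated kinase subunits Prkaa2 (-0.56) and Prkaa1 (-0.37), and 1 rose, Mbtps1 (0.26), a protease that cleaves SREBP. Cidea is also one of the brown adipocyte markers, and Plin2 one of the milk secretion list, in which 4 of 8 genes fell and 1 rose.

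Further probe sets of the same genes gave a second reading. For 11 of the 20 genes that fell, 16 further probe sets passed the filter, all 16 were called lower, and 14 of them showed a larger fall than the probe set used. Acaca's other probe set gave -1.10 and one of Acly's gave -1.10, against -0.53 and -0.71 from the brighter sets. The second Thrsp set gave -0.53 and the third, a dim one, -0.85. The 8 further probe sets of genes that were not called were not called either. Scd1's second probe set, with a mean of 6811, gave -0.32 (adjusted p = 0.199), opposite in sign to the set used, so that no direction is given for Scd1. Several probe sets, among them those used for Dgat1, Acsl3 and Elovl1, carry the array's suffixes for probes that may match more than 1 transcript.

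**Figure D3:**
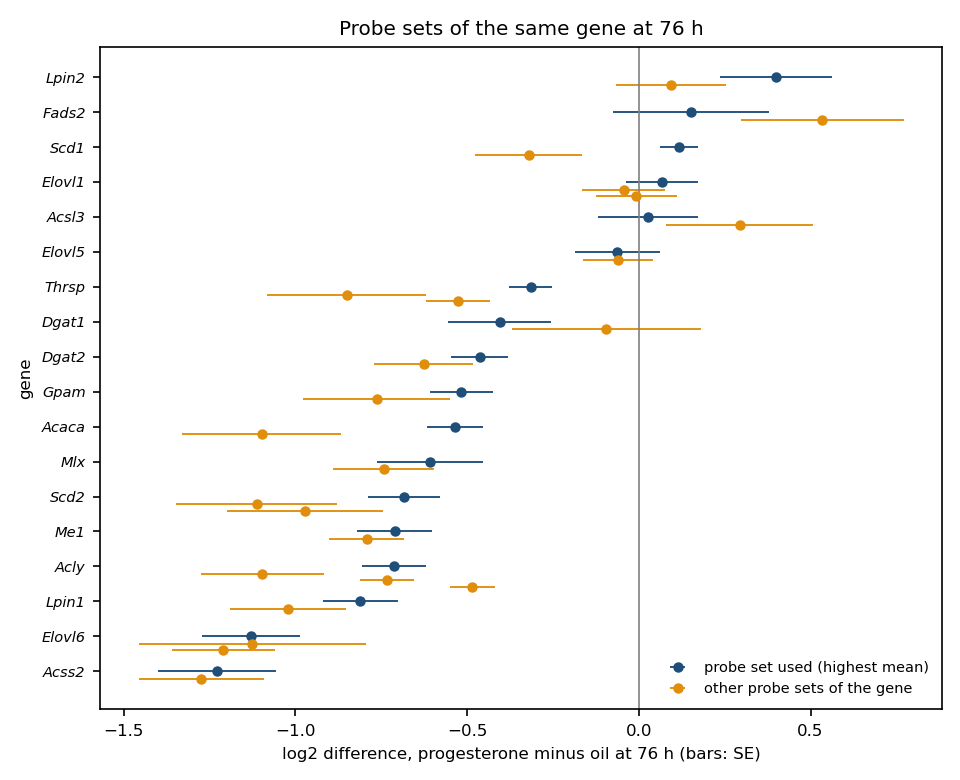
The log2 difference at 76 h (horizontal axis, bars SE) is shown for every probe set of the 18 genes with more than 1, the probe set used in blue and the others in orange. The orange points of the genes that fell lie left of 0 and mostly left of the blue point, while those of Scd1 fall on opposite sides of 0.

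At 4 h no lipid synthesis gene was called with limma, and 0.186% of all genes were. An unadjusted p under 0.05 was found for 5 of 31 (16.1%) and for 12.6% of all genes. The differences were negative for 26 of 31 genes, with a median of -0.08 against -0.01 over all genes. Mlx read 401, 409.6 and 469 in oil and 241, 262 and 332 with progesterone. Its arrays were separated, at -0.62 ± 0.15 (adjusted p = 0.0871). Lpin2 read 268, 339.6 and 318 in oil and 493, 516 and 413 with progesterone. It was separated in the other direction, at 0.62 ± 0.16 (adjusted p = 0.0994). Srebf1 read 3165, 3459 and 3633 in oil and 2479.7, 2737 and 2890 with progesterone, a difference of -0.34 ± 0.11 (adjusted p = 0.170). Dgat1 and Acacb stood at -0.43 and -0.33. The arrays of 7 genes did not overlap downward and those of 1 upward, while over all genes 12.8% and 6.12% did so. Without progesterone replicate 3, 2 genes were called, and the share of all genes called in that fit is not given here. The 4 h oil group was itself high for several of these genes, as described below, and set against the oil groups at 16, 28 and 76 h the progesterone group at 4 h differed by 0.08 for Srebf1, -0.01 for Dgat1 and 0.12 for Acacb, none of them called. The median of the 31 genes was 0.08 by that comparison, with 22 of 31 positive, opposite in sign to the comparison within 4 h. By it 2 genes were lower at 4 h, Mlx (-0.51 ± 0.12, adjusted p = 0.0163) and Insig1 (-0.55 ± 0.15, adjusted p = 0.0304). Of all genes 6.51% were called by it and 3.46% called lower. Within 4 h the difference of Insig1 was only -0.20 and was not called. Insig1 had 4 h means of 1534 in oil and 1355.5 with progesterone. The other oil groups, of 16, 28 and 76 h, had Insig1 means of 2003, 1453 and 2464. Its 4 h oil group was thus itself below 2 of the 3 used as controls. As a sign of RNA quality, the actin control gave a log2 ratio of its 3′ over its 5′ probe set of 0.43 ± 0.01 in oil and 0.56 ± 0.04 with progesterone at 4 h, and of 0.34 ± 0.03 and 0.40 ± 0.05 at 76 h (SD, n = 3 arrays each). The Gapdh control gave -0.08 ± 0.10 and 0.20 ± 0.18 at 4 h and -0.11 ± 0.02 and -0.14 ± 0.03 at 76 h. The part of RNA quality in these results was not tested.

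At 16 h and 28 h no gene of the pathway was called with limma either. At 16 h the median difference was 0.00 and 0.308% of all genes were called, and 1 of the 31 (3.23%) had an unadjusted p under 0.05, against 17.7% of all genes. That gene was Lpin1, with 2275, 2431 and 2651 in oil and 2389, 2000.5 and 1917 with progesterone, overlapping groups that differed by -0.23 ± 0.11 (adjusted p = 0.279). At 28 h the median was -0.01 and 2.53% of all genes were called, and 3 of the 31 (9.68%) had an unadjusted p under 0.05, against 12.4% of all genes. Fads1 read 1014, 969 and 891 in oil and 1234, 1073 and 1164 with progesterone. The arrays did not overlap, and the difference was 0.27 ± 0.09 (adjusted p = 0.128). Scd2 stood at 0.27 ± 0.10 and Mid1ip1 at 0.37 ± 0.16 (adjusted p = 0.240 and 0.296). The progesterone arrays at 28 h were far apart, as for Elovl6 with 4911, 3860.4 and 6335 and Acss2 with 2344, 1861 and 3369.8. Without progesterone replicate 2, 1 gene was called at 28 h, and the share of all genes called in that fit is not given here. Array quality weights called 9, 11 and 3 of the genes at 4, 16 and 28 h, but with those weights 2771, 7332 and 1619 of all genes were called.

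The difference between progesterone and oil changed with time for many of the genes. An F-test of whether the 4 differences were equal called 18 of 31 (58.1%), against 10% of all genes. Mid1ip1 had the smallest adjusted p, 2.63e-04, with differences of -0.17, -0.03, 0.37 and -1.18 at the 4 times. For Agpat2 they were -0.12, 0.02, 0.05 and -0.83 (adjusted p = 7.31e-04), and for Acly -0.01, -0.04, 0.03 and -0.71 (adjusted p = 7.95e-04). In each the difference at 76 h stood far from the earlier ones. Srebf1 was not among the 18, with -0.34, -0.06, -0.14 and -0.43 (adjusted p = 0.260). Mlx was called there with differences of -0.62 and -0.61 at 4 and 76 h and -0.02 and 0.09 between them (adjusted p = 0.0350). The count depended on single arrays at 76 h, and was 10 when replicate 1 of either treatment was left out and 11 in the absence of progesterone replicate 2.

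Within the progesterone groups alone, 22 of 31 genes (71.0%) differed between times, against 27.2% of all genes. Slc25a1 led, with 4668, 5133 and 5109 at 4 h, 3589, 4856 and 4259 at 16 h, 5605, 4230.2 and 5072 at 28 h and the 76 h values given above (adjusted p = 4.88e-06). The 76 h arrays were below every earlier progesterone array. Set against the oil groups at 4, 16 and 28 h, the progesterone group at 76 h had 21 genes lower and 3 higher, where 32.6% of all genes were called, 15.7% lower and 16.9% higher. The 3 that were higher by this comparison were Acsl3 (0.49 ± 0.12), Lpin2 (0.49 ± 0.13) and Fads1 (0.20 ± 0.07). Dgat1 was lower by it, at -0.83 ± 0.12 (adjusted p = 1.38e-05), and so was Mcat (-0.29 ± 0.11). For Acsl3 and Dgat1 the oil group at 76 h differed in the same direction. Acsl3 had means of 248 in oil and 253 with progesterone at 76 h. Its oil means at 4, 16 and 28 h were 181, 199 and 161. Dgat1 had means of 1419 in oil and 1092 with progesterone at 76 h. Its oil means at 4, 16 and 28 h were 2211, 1458 and 2179. Besides Insig1, 4 of the genes that fell had differences smaller against the earlier oil groups by more than 1.5 times, with Pnpla3 at -0.82, Mid1ip1 at -0.66, Scd2 at -0.43 and Mlx at -0.40. With the oil groups of the other times as controls, Srebf1 alone was called at 16 h (-0.37 ± 0.09, adjusted p = 0.0183, 4.53% of all genes called). The oil group at 16 h was low for Srebf1 too, with means of 2333.5 in oil and 2250.3 with progesterone. Its oil means at 4, 28 and 76 h were 3419, 2731 and 2605. At 28 h none was called by that comparison, with 0.874% of all genes called. At 28 h 4 of 31 (12.9%) had an unadjusted p under 0.05 by it, against 13.2% of all genes. These comparisons share oil arrays with each other and with those between oil groups.

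**Figure D4:**
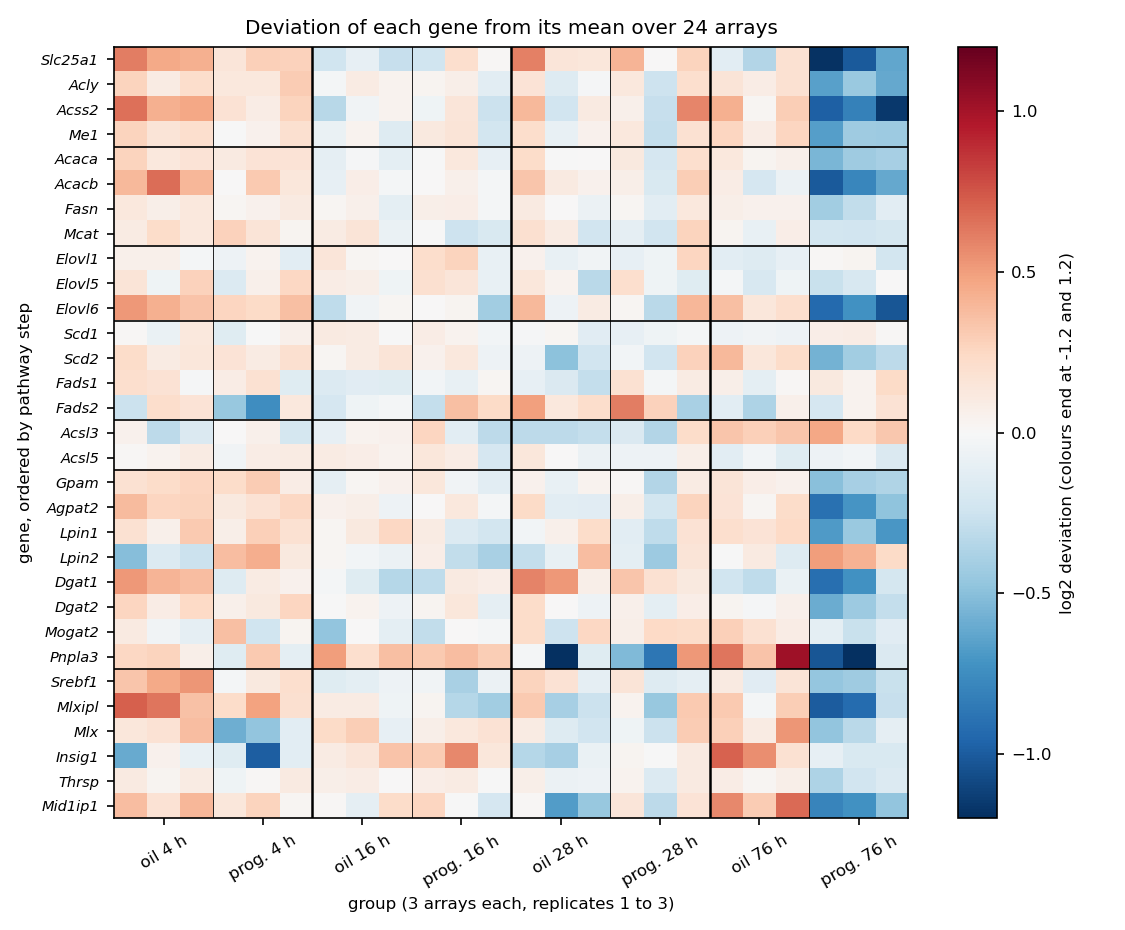
Each cell gives the log2 deviation of a gene (rows, by pathway step) from its own mean over 24 arrays on one array (columns, by group and replicate), blue for lower and red for higher, with colours ending at -1.2 and 1.2. The 3 progesterone columns at 76 h are blue for most rows, while those of Scd1, Fads1, Acsl3 and Lpin2 are pale or red, and the oil columns at 4 h are red for most rows.

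The oil groups also differed from each other. An F-test over the 4 oil groups called 8 of 31 genes (25.8%), against 12.2% of all genes, and the 8 were Mid1ip1, Dgat1, Slc25a1, Srebf1, Scd2, Acacb, Insig1 and Acsl3. At 4 h, 3 genes were higher than in the other oil groups and 27 of 31 had positive differences, with a median of 0.13, while of all genes 2.86% were called and 2.23% called higher. Srebf1 read 3165, 3459 and 3633 at 4 h, 2271, 2311 and 2418 at 16 h, 3022, 2830.2 and 2340.3 at 28 h and 2719, 2297 and 2799 at 76 h. The 4 h arrays were above all others, with a difference of 0.43 ± 0.09 (adjusted p = 0.0184). Acacb read 1915, 2322 and 1925 at 4 h, 1361, 1545 and 1437 at 16 h, 1842, 1577 and 1517 at 28 h and 1555, 1267 and 1387 at 76 h. It too was highest at 4 h (0.46 ± 0.10, adjusted p = 0.0198). Slc25a1 read 6484, 5796 and 5669 at 4 h and 3579, 3942 and 3486 at 16 h, and 6438, 4659.8 and 4626 at 28 h, where replicate 1 reached the 4 h range. The 4 h difference was 0.50 ± 0.12 (adjusted p = 0.0268). The 3 calls at 4 h rested on few arrays, since none was left without oil 4 h replicate 1 or replicate 2 and 1 without replicate 3, while 8 were made without oil 28 h replicate 1.

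Dgat1 was high at 4 and 28 h and low at 16 and 76 h in oil, with 2352, 2168 and 2112 at 4 h, 1606, 1475 and 1293 at 16 h, 2471, 2347 and 1718 at 28 h and 1386, 1326 and 1545 at 76 h (F-test adjusted p = 0.00441). Only oil 28 h replicate 3 lay below the 4 h range among the high groups. No gene was called for the oil group at 16 h, where the median was -0.10 and 0.996% of all genes were called. There 9 of 31 (29.0%) had an unadjusted p under 0.05, against 19.0% of all genes, and without oil 28 h replicate 3 there were 3 calls. At 28 h 3 genes were lower than in the other oil groups, while of all genes 7.60% were called and 6.10% called lower. Mid1ip1 read 1945, 1695 and 1974 at 4 h, 1520.5, 1393 and 1752 at 16 h, 1516, 941 and 1094 at 28 h and 2237, 1854 and 2401 at 76 h. Its 28 h difference was -0.66 ± 0.13 (adjusted p = 0.00136). Scd2 read 6337, 5846 and 5991 at 4 h, 5551, 5835 and 6076 at 16 h, 5228, 3869 and 4645 at 28 h and 7124, 5977 and 6364 at 76 h. All 3 arrays at 28 h were below every other oil array, at -0.43 ± 0.09 (adjusted p = 0.00204). For Pnpla3 the difference was -0.88 ± 0.25 (adjusted p = 0.0294), with replicate 2 at 275 far below the other arrays. Without oil 28 h replicate 2 the calls at 28 h went from 3 to 1.

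At 76 h the oil group was higher for 3 genes, while of all genes 2.99% were called and 1.02% called higher. Mid1ip1 differed by 0.52 ± 0.13 (adjusted p = 0.0314). Insig1 read 1149.8, 1814 and 1639.8 at 4 h, 1867, 1926 and 2217 at 16 h, 1377, 1325 and 1656 at 28 h and 2844, 2564 and 1983 at 76 h. The 76 h group overlapped that at 16 h and differed from the rest by 0.58 ± 0.15 (adjusted p = 0.0387). Acsl3 read 206, 160.4 and 176 at 4 h, 185, 205 and 207 at 16 h, 161, 161 and 163 at 28 h and 251, 242 and 250.4 at 76 h. Its 76 h arrays were above every other oil array (0.47 ± 0.12, adjusted p = 0.0340). None of these calls was left when replicate 2 of oil at 28 h, or replicate 1 or 2 of oil at 76 h, was omitted. Omitting replicate 1 at 16 h, replicate 1 at 28 h or replicate 3 at 76 h left 1. For Mid1ip1 and Insig1 the fall with progesterone at 76 h was measured against an oil group that was higher than the others.

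Other gene lists differed between the oil groups as well. Of 11 clock genes 9 were called by the F-test, and their summed intensity was 7490 to 8986 at 4 h, 5228 to 6578 at 16 h, 7702 to 8476 at 28 h and 4159 to 4858 at 76 h. The sums at 76 h were below those at 4 and 28 h, and these 3 times lie whole days apart. Dbp, a clock output gene, had means of 2576 ± 520.1, 1424 ± 542, 2568 ± 81.4 and 724 ± 219 (SD, n = 3 arrays each). A sum is weighted toward the brighter genes of a list. The mean log2 deviation of the 11 clock genes from their own means over all arrays was 0.19, 0.03, 0.15 and -0.11. The list also holds Arntl, Npas2 and Clock, whose values are not given, and no clock phase is read from these figures. Skeletal muscle markers were called for 10 of 13 genes, with summed intensities of 43235 to 75493 at 16 h and 14730 to 23941 at 28 h, macrophage markers for 7 of 8, and white adipocyte markers for 5 of 12. The part of the hour of day, of muscle and of other cells in the differences between oil groups was not tested.

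**Figure D5:**
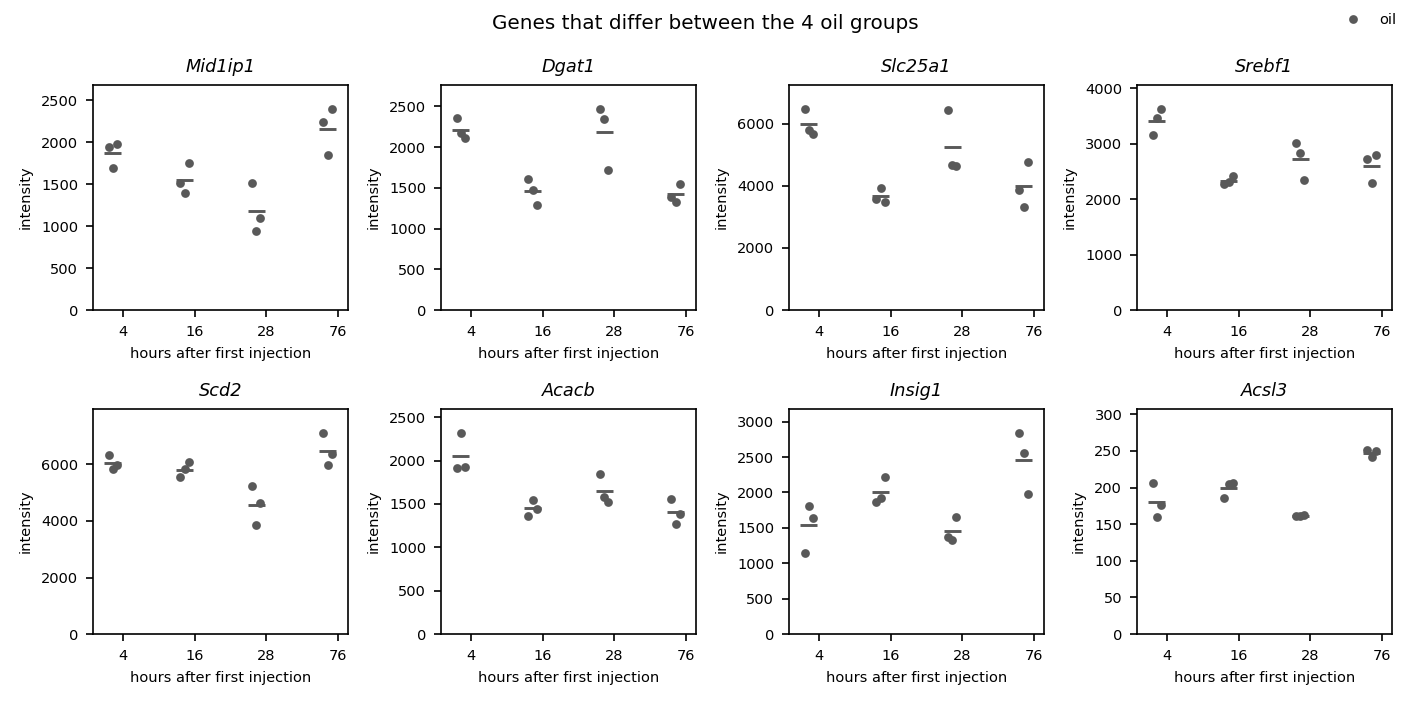
Intensity on each oil array (points, vertical axes from 0) and the group mean (lines) are plotted against hours after the first injection for the 8 genes that differed between the oil groups. Srebf1, Acacb and Slc25a1 are highest at 4 h, Mid1ip1 and Scd2 lowest at 28 h, and Acsl3 and Insig1 highest at 76 h.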

How the data were processed

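RNA of whole mammary glands was extracted with Trizol, labelled by a one-cycle protocol and hybridized to the Affymetrix Mouse Genome 430 2.0 array, per the labels' protocols. The deposited values are linear intensity values for 45101 probe sets on 24 arrays. How they were summarized and normalized is not stated in the labels or files used here. With 3 arrays a group, their number limits precision. Values under the table's 10th percentile (7.38) were raised to it, and log2 was taken. Probe sets had to lie above the array median on at least 3 of 24 arrays, and each gene took its brightest passing probe set with a single symbol in the platform annotation. All arrays were fitted in 1 limma model (limma 3.58.1, R 4.3.3, statmod 1.5.0) with 8 group means, a variance trend on intensity and 16 residual degrees of freedom. Tests are two-sided, and Benjamini-Hochberg adjustment ran over all 12352 genes. The script was tested on simulated data.

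The members, pathway lists and marker lists were chosen with earlier results of these data known. Values on every array are given for up to 8 called genes per comparison, by size of the log2 difference or, for F-tests, by p, and for 9 genes whatever their values (Srebf1, Mlxipl, Fasn, Acaca, Scd1, Acly, Dgat1, Dgat2 and Insig1). Other lists are given by counts, with up to 4 called genes each. Alternatives changed the filter, normalization, floor, pseudocount, probe set choice, variance model, array weights, controls and arrays included. Deviations from the group means correlated positively in 11 of 12 same-numbered pairs of oil and progesterone arrays (-0.02 to 0.35, 6 over 0.1) and in 7 of 24 differently numbered pairs. The labels tie no numbers together and not every same-numbered pair was over 0.1, so the main model does not pair arrays. Same-numbered arrays were nevertheless more often alike. Deviations within a group cancel, so positive values in same-numbered pairs force lower values in the others. The counts for same and different numbers are therefore not independent. The replicate block tried as an alternative gives each number an effect shared by all times. It does not model a pairing within each time, which was not tested. Promoter sequences are RefSeq's, on GRCm38.p6.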

Additional observations from a re-analysis of the deposited data

Results flagged for a closer look

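For 18 of the 31 genes the difference between progesterone and oil was not the same at the 4 times, by an F-test in the limma fit adjusted over all genes. In order of p these were Mid1ip1 (adjusted p = 2.63e-04), Agpat2 (7.31e-04), Scd2 (7.47e-04), Acly (7.95e-04), Elovl6 (0.00125), Acss2 (0.00181), Acaca (0.00288), Me1 (0.00433), Lpin1 (0.00435), Slc25a1 (0.00929), Acacb (0.0164), Dgat2 (0.0190), Gpam (0.0213), Fasn (0.0262), Mlx (0.0350), Thrsp (0.0377), Lpin2 (0.0391) and Pnpla3 (0.0399). For 16 of them, all but Mlx and Lpin2, the largest of the 4 differences was the fall at 76 h. Lpin2 stood at 0.62, -0.18, -0.13 and 0.40 at the 4 times, and its call was lost in 19 of 33 other settings. Mlx stood at -0.62 at 4 h and -0.61 at 76 h and lost its call in 13, Pnpla3 in 14 and Thrsp in 12.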

How the results depend on the processing

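No called gene changed direction in any setting tried. With the oil arrays of other times as controls the median of the 31 genes at 4 h went from -0.08 to 0.08, and the medians at 16 and 28 h, near 0, changed sign in several settings. The count of genes called at 76 h, 20, was 19 to 21 when each array was left out in turn, 20 with the replicate number as a block, 22 in a fit to the 6 arrays of that time and 25 with array quality weights. With those weights 4827 of all genes were called at 76 h, in place of 2195. Array quality weights gave 9 calls at 4 h, 11 at 16 h and 3 at 28 h in place of 0 each, and 13, 9, 16 and 10 for the oil groups at 4, 16, 28 and 76 h in place of 3, 0, 3 and 3, and 23 in place of 8 by the F-test over oil groups. The cause was not tested. Over all genes the same weights called 1661, 5133, 5150 and 3573 for the oil groups at 4, 16, 28 and 76 h. By the F-test over oil groups they called 8286 of all genes. Over the progesterone groups they called 30 of the 31 genes and 10189 of all genes. For the change with time the counts were 25 and 8195. The oil arrays of other times as controls gave 2 calls at 4 h and 1 at 16 h. Quantile normalization gave 3 calls for oil at 16 h, and for oil at 76 h omitting the filter gave 0 and a variance prior with no trend 1. Leaving out each array in turn gave 0 to 2 calls at 4 h, 0 at 16 h, 0 to 1 at 28 h, 0 to 8 for oil at 4 h, 0 to 3 for oil at 16 h, 1 to 4 for oil at 28 h, 0 to 4 for oil at 76 h, 6 to 12 over the oil groups, 19 to 25 over the progesterone groups and 10 to 20 for the change with time. The replicate block moved no count of calls by more than 1.5 times, with 17 for the change with time. The share of all genes called is not given, here or above, for the fits with an array left out. Nor is it given for the changes of normalization, filter and variance prior, the replicate block or the fit to 6 arrays. Those counts do not show whether the lipid genes changed more than other genes. No depth is known for arrays, and probe sets near the top of the intensity scale (Scd1, Thrsp, Fasn, Fabp4) may understate differences.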
